A study of Mus musculus with 6 samples.

Results

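Hp, Slpi, Wfdc21, Trem1, Trem3, Cxcr2, Clec4e, Anxa1, Padi4 and G0s2 are 10 genes that neutrophils and their precursors use, and they were examined in LSKs, the Lin- Sca-1+ c-Kit+ fraction of bone marrow that holds the hematopoietic stem and early progenitor cells. They were picked by name out of a table of 55487 genes, and were selected on their measured values because some were higher in Tespa1-/- LSKs and others were flat or lower, so their fold changes are given here as a description and without a test. The libraries came from male mice of 8 to 10 weeks at day 13 after 5.0 Gy of total body irradiation, which both groups received. A group of 3 libraries came from Tespa1+/+ (wild type) mice, labelled as littermates, and a group of 3 from Tespa1-/- mice, the mutant strain B6.129S-Tespa1tm1Smoc, backcrossed to C57BL/6. Whether a library was made from 1 mouse or from a pool was not stated, so the SD values below are the spread between these samples and may be technical. The SE of a fold change comes from the edgeR model of the counts, whose error estimate also draws on the other genes tested. It rests on the same samples.

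As background, neutrophils arise from myeloid progenitors in the marrow and load their granules in waves, with myeloperoxidase and elastase early and lactoferrin and gelatinase late. Outside the granule proteins proper, they carry receptors that guide them out of the marrow and sense damage and microbes, release soluble carriers and protease inhibitors, and switch on enzymes that alter chromatin and lipid use. Haptoglobin and SLPI proteins have been described in late neutrophil granules as well as in plasma and mucosal fluids, so the 10 genes are referred to by name and not as a non-granule class.

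The libraries held 12856630 to 30576981 counted fragments, and all 10 genes were among the 15332 that passed the filter on low counts. Tespa1 had counts of 626, 1033 and 533 in the Tespa1+/+ and of 261, 207 and 176 in the Tespa1-/- libraries, so the targeted gene was lower in each library labelled Tespa1-/- but was still counted there. Of the sort markers, Kit (the gene of c-Kit) fell from 333 ± 9.79 to 170 ± 6.13 CPM (normalised counts, as CPM on TMM library sizes, SD, n = 3 each), which is -0.97 on the log2 scale (SE 0.04, edgeR adjusted p 2.1e-06), and Ly6a (the gene of Sca-1) was at 50.5 ± 11.6 and 40.4 ± 3.36 CPM (-0.32, SE 0.16, edgeR adjusted p 0.109). With the correction for gene length described below, Kit was at -0.57, under the fold of 1.5, and Ly6a was called lower at -0.65 (SE 0.15, edgeR adjusted p 0.00934). Late granule markers moved with the groups, as the 12 markers of secondary and tertiary granules summed to between 22.1 and 24.6 CPM in Tespa1+/+ and to between 506 and 537 CPM in Tespa1-/- libraries. Of these markers 11 were tested, all were called higher, and Ly6g, which defines mature mouse neutrophils, was at 0 in every Tespa1+/+ library and at counts of 7, 8 and 4 in the Tespa1-/- libraries. In bulk RNA, more cells of a type and more RNA per cell cannot be told apart, and the part of these cells in the values below was not tested.

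The stretches upstream of the genes are shown first, since regulators of the C/EBP family and PU.1 are known to drive neutrophil gene expression. RefSeq promoters (GRCm38.p6, the 250 bases before the transcript start) were found for 7 of the 10 genes, namely Slpi, Trem1, Cxcr2, Clec4e, Anxa1, Padi4 and G0s2, and were searched on both strands for TTNNGNAA, a C/EBP-type word, and GAGGAA, a PU.1-type core. The 3 windows that hold no annotated exon are printed 5′ to 3′ on the strand of the gene, with the matches in capitals. They were chosen for the lack of exons and not for the calls given below. Slpi was called higher, though not after the length correction described below, and Trem1 and Clec4e were not called. Hp, Trem3 and Wfdc21, which were also called higher, had no promoter to search. The windows lie at chr2:164356508-164356757 (minus strand, Slpi), chr17:48232489-48232738 (plus strand, Trem1) and chr6:123289872-123290121 (minus strand, Clec4e).
Slpi: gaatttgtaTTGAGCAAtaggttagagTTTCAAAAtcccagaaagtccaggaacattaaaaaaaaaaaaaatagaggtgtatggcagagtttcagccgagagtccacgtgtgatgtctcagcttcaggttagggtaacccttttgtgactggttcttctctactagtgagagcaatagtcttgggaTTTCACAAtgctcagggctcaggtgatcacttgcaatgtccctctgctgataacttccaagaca
Trem1: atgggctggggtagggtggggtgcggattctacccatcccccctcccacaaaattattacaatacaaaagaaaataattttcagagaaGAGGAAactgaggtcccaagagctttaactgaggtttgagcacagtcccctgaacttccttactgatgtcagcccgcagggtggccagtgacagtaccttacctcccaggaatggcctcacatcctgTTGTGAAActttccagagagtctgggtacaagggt
Clec4e: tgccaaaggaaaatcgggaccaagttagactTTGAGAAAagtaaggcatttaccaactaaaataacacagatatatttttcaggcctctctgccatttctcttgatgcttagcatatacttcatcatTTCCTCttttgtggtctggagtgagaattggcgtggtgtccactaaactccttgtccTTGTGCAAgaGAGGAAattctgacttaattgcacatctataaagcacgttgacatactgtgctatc
In the Slpi window the C/EBP-type word was found at positions -241, -223 and -64 from the start, and in this window no GAGGAA was present. The Trem1 window held the C/EBP-type word at -35 and GAGGAA at -162. The Clec4e window held C/EBP-type words at -219 and -66 and GAGGAA at -123 and -56. Across the 7 promoters, the C/EBP-type word was present in 4 (Slpi, Trem1, Clec4e and Anxa1) and GAGGAA in 4 (Trem1, Cxcr2, Clec4e and Anxa1), while among 32841 mouse promoters of the same length the shares were 36.9% and 23.3%. No match overlapped another. The promoters of Padi4 and G0s2 held neither word and were rich in GC, at 66% and 67.2%, against 39.6% to 54.4% in the other 5. A match is a run of letters and not a binding site, and no binding data were used here.

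Of the 10 genes, 6 were called higher in Tespa1-/- LSKs at an edgeR adjusted p under 0.05 and a fold over 1.5, beside 14.0% of all genes tested, and 0 were called lower, beside 19.2%. The 6 were Wfdc21, Hp, Trem3, G0s2, Anxa1 and Slpi, and the other 4 were Clec4e, Trem1, Cxcr2 and Padi4. Since the genes were chosen on this comparison, nothing is read from these shares. At an unadjusted p under 0.05 with no limit on the fold, 8 were higher and 1 was lower. The share of all genes past that looser cutoff is not given here, so nothing is read from these counts. DESeq2 likewise called 6 of the 10 genes higher and 0 lower, where it called 1929 and 2575 of all genes. All Tespa1-/- libraries lay above all Tespa1+/+ libraries for 8 of the genes (34.5% of all genes tested) and below them for 1 (34.6%), and the groups overlapped for 1, Cxcr2. The median log2 fold change of the 10 genes was 0.96, with that of all genes tested at 0.

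**Figure D1:**
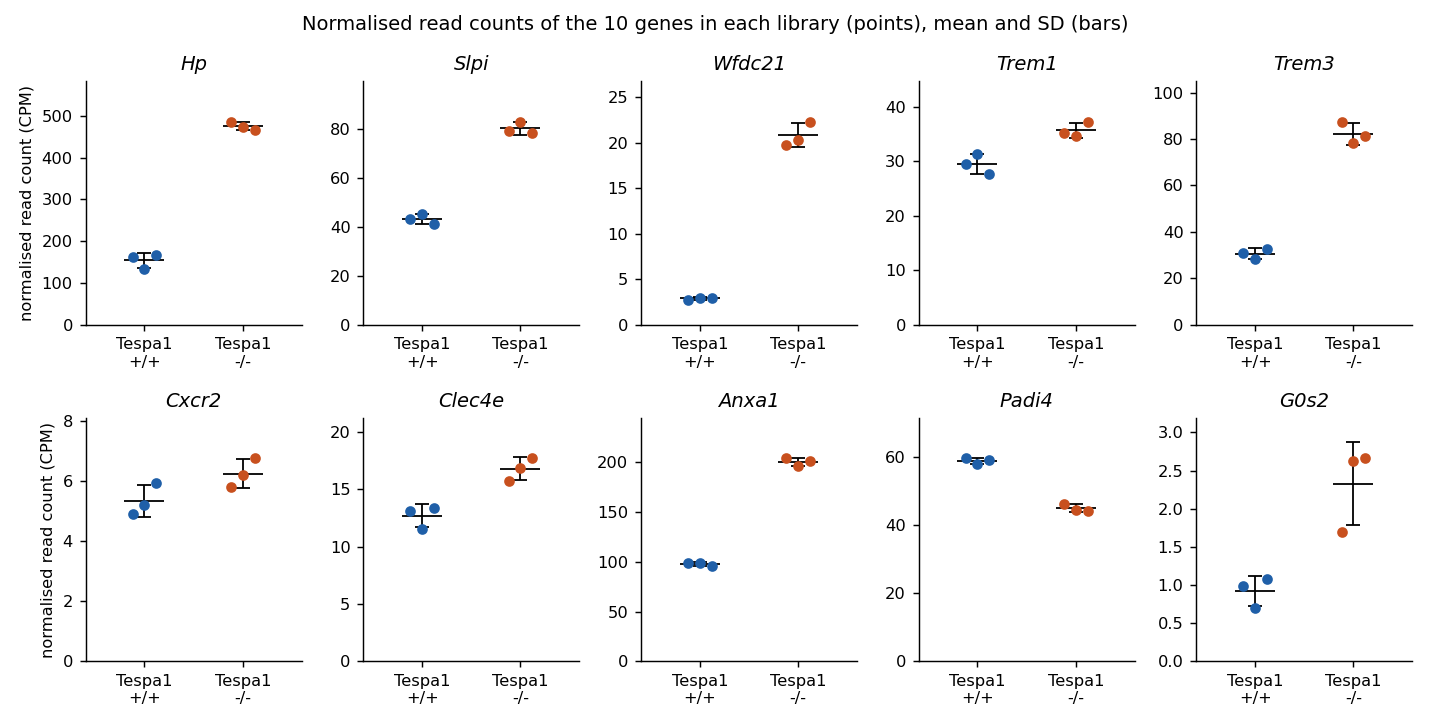
Normalised read counts (CPM, linear axes from 0) of the 10 genes in the 3 Tespa1+/+ libraries (blue) and the 3 Tespa1-/- libraries (orange), with a point per library and bars for the mean and SD. The groups are apart for every gene except Cxcr2, and Padi4 is the gene whose Tespa1-/- libraries lie below the Tespa1+/+ libraries.

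Among the secreted products, haptoglobin (Hp), which binds free hemoglobin, was the most abundant per length. Hp (ENSMUSG00000031722, GRCm38 chr8:109575128-109579172, minus strand) was at 162, 134 and 166 CPM in the Tespa1+/+ and at 486, 472 and 466 CPM in the Tespa1-/- libraries. Each Tespa1-/- library thus stood far above each Tespa1+/+ library, and the Tespa1+/+ libraries were the more spread. The mean rose from 154 ± 17.2 to 475 ± 9.9 CPM (SD, n = 3 each), which is 3.09-fold (log2 fold change 1.63, SE 0.08). In the Tespa1+/+ libraries Hp was counted 2454 to 4239 times. Which cells the Hp counts came from was not tested.

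Slpi encodes secretory leukocyte protease inhibitor, which blocks neutrophil elastase and cathepsin G. Slpi (ENSMUSG00000017002, chr2:164354070-164389095, minus strand) was at 43.1, 45.3 and 41.4 CPM in the Tespa1+/+ and at 79.3, 83.1 and 78.3 CPM in the Tespa1-/- libraries. Libraries within a group lay close together and the groups were well apart. The mean rose 1.85-fold, from 43.3 ± 1.96 to 80.3 ± 2.55 CPM (log2 fold change 0.89, SE 0.05). The promoter printed above lies before the shorter annotated transcripts, inside the span of a longer one, and an exon of Slpi overlaps the annotated microRNA gene Mir7678, so that reads there cannot be assigned with certainty.

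Wfdc21 encodes a small secreted protein with a whey acidic protein (WAP) domain, the fold that SLPI carries as well. Wfdc21 (ENSMUSG00000051748, chr11:83746940-83752642, plus strand) had counts of 49, 94 and 44 in the Tespa1+/+ and of 336, 295 and 276 in the Tespa1-/- libraries, or 2.7, 2.98 and 2.97 CPM against 19.7, 20.3 and 22.3 CPM. It was low in all Tespa1+/+ libraries and moderate in all Tespa1-/- libraries. The mean rose 7.17-fold, from 2.88 ± 0.159 to 20.8 ± 1.32 CPM (log2 fold change 2.84, SE 0.10), which was the largest fold of the 10 genes. Slpi, Hp and Wfdc21 thus rose by 1.85-, 3.09- and 7.17-fold.

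Turning to receptors, TREM1 is an activating receptor that amplifies inflammatory signals in myeloid cells through the adaptor DAP12 (Tyrobp), and TREM3 is a related receptor in mice. Trem1 (ENSMUSG00000042265, chr17:48232768-48246924) and Trem3 (ENSMUSG00000041754, chr17:48247777-48258841) are neighbours on the plus strand with 852 bases between them. Trem1 was at 29.6, 31.3 and 27.7 CPM in the Tespa1+/+ and at 35.3, 34.6 and 37.3 CPM in the Tespa1-/- libraries. The Tespa1-/- libraries were higher without overlap, but by a small step (29.5 ± 1.83 and 35.7 ± 1.39 CPM, 1.21-fold, log2 fold change 0.27, SE 0.07), and Trem1 was not called.

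Trem3 was at 30.8, 28.2 and 32.8 CPM in the Tespa1+/+ and at 87.5, 78.1 and 81.3 CPM in the Tespa1-/- libraries. The mean rose from 30.6 ± 2.29 to 82.3 ± 4.8 CPM, or 2.7-fold (log2 fold change 1.43, SE 0.07). Within each library, the count of Trem3 was therefore close to that of Trem1 in Tespa1+/+ LSKs, with ratios of 1.04, 0.901 and 1.19, and well above it in Tespa1-/- LSKs, with ratios of 2.48, 2.26 and 2.18. Per base of merged exon, the ratios were 3.14, 2.72 and 3.57 against 7.48, 6.81 and 6.58. The pair of neighbours thus changed unequally in all 3 Tespa1-/- libraries, and their transcripts share no run of 50 bases with any other annotated transcript.

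CXCR2 is the receptor for the CXC chemokines that draw neutrophils out of the marrow and to sites of inflammation. Cxcr2 (ENSMUSG00000026180, chr1:74153989-74161246, plus strand) had counts of 89, 165 and 88 in the Tespa1+/+ and of 99, 90 and 84 in the Tespa1-/- libraries, which is 4.9, 5.23 and 5.94 CPM against 5.81, 6.2 and 6.77 CPM. The lowest Tespa1-/- library lay below the highest Tespa1+/+ library. The means were 5.35 ± 0.53 and 6.26 ± 0.484 CPM (1.17-fold, log2 fold change 0.23, SE 0.12), and Cxcr2 was not called. Of its 3039 runs of 50 bases, 122 (4.01%) also occur in transcripts of other genes, so part of its count is uncertain. The other 9 genes shared no such run.

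Clec4e encodes Mincle, a C-type lectin receptor that senses mycobacterial glycolipid and dying cells. Clec4e (ENSMUSG00000030142, chr6:123281789-123289870, minus strand) was at 13.1, 11.5 and 13.4 CPM in the Tespa1+/+ and at 15.7, 16.9 and 17.7 CPM in the Tespa1-/- libraries. The groups did not overlap and lay close to each other. The means were 12.7 ± 0.991 and 16.8 ± 1.01 CPM (1.33-fold, log2 fold change 0.41, SE 0.09), short of the fold of 1.5. Of the 4 receptors, only Trem3 was called in this comparison. The promoters of both Trem1 and Clec4e held C/EBP-type and PU.1-type words, as did that of Anxa1, which was called. Any part of these words in the calls was not tested.

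Among the intracellular proteins, annexin A1 (Anxa1) binds calcium and membrane phospholipid, and is released to dampen neutrophil recruitment. Anxa1 (ENSMUSG00000024659, chr19:20373428-20390944, minus strand) was at 99.2, 98.4 and 95.6 CPM in the Tespa1+/+ and at 204, 196 and 201 CPM in the Tespa1-/- libraries. These were the tightest replicates of the 10 genes, with a pooled SD of log2 CPM within groups of 0.0284. The mean rose 2.05-fold from 97.7 ± 1.91 CPM (log2 fold change 1.03, SE 0.03).

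Padi4 encodes peptidylarginine deiminase 4, which converts arginine to citrulline in histones and takes part in the release of neutrophil extracellular traps. Padi4 (ENSMUSG00000025330, chr4:140745865-140774236, minus strand) was at 59.5, 57.8 and 59 CPM in the Tespa1+/+ and at 46.2, 44.5 and 44.2 CPM in the Tespa1-/- libraries. Every Tespa1-/- library lay below every Tespa1+/+ library. The means were 58.7 ± 0.854 and 45 ± 1.08 CPM (log2 fold change -0.38, SE 0.04, a ratio of 0.766), which is under the fold of 1.5, so Padi4 was not called.

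G0s2 encodes an inhibitor of adipose triglyceride lipase (Pnpla2), the enzyme that starts the breakdown of stored triglyceride. G0s2 (ENSMUSG00000009633, chr1:193272161-193273217, minus strand), which lies inside the span of Lamb3 without sharing an exon, had counts of 18, 22 and 16 in the Tespa1+/+ and of 29, 38 and 33 in the Tespa1-/- libraries. The groups were apart, but the first Tespa1-/- library, at 1.7 CPM, was nearer to the Tespa1+/+ libraries (0.991, 0.697 and 1.08 CPM) than the other Tespa1-/- libraries at 2.62 and 2.66 CPM. The mean rose from 0.922 ± 0.2 to 2.33 ± 0.541 CPM, or 2.58-fold (log2 fold change 1.37, SE 0.27). Its counts were the lowest of the 10 genes, and its pooled SD of log2 CPM within groups, 0.35, was the highest.

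**Figure D2:**
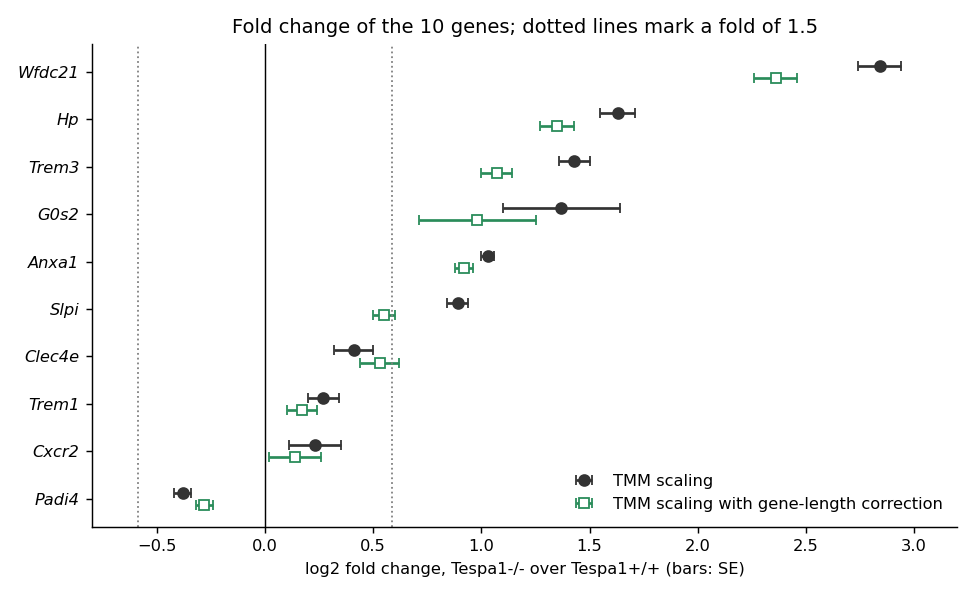
Log2 fold change (Tespa1-/- over Tespa1+/+, horizontal axis) of the 10 genes with bars for the SE, from TMM scaling (filled) and with a further correction for gene length (open squares). Dotted lines mark a fold of 1.5, and the open square of Slpi lies below that line where its filled point lies above it.

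The fold changes were next read against gene length, because short genes were higher and long genes lower in Tespa1-/- libraries across the whole table. Over 15320 genes, merged exon length and log2 fold change had a Spearman's rho of -0.47, given as a description, since genes are no replicates of each other. The 2082 genes of at most 1000 bases had a median log2 fold change of 0.54, and the 7026 genes over 4000 bases had a median of -0.27. Of the 10 genes, the 5 shortest, Wfdc21 (434 bases), G0s2 (871), Trem3 (994), Slpi (1180) and Hp (1606), were all called higher. Of the 5 longer genes, Anxa1 (2911 bases) was called higher, while Trem1 (2996), Cxcr2 (3048), Padi4 (4835) and Clec4e (4965) were not. The share called among all genes of like length is not given here. Since the 10 genes were also chosen on their fold changes, nothing is read from this split.

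With the trend removed by a smooth fit of the deviations on length in each library, rho was -0.02 and 5 of the 10 genes were called higher, beside 8.18% of the genes tested, and 0 lower, beside 15.3%. Slpi was the gene that lost its call, with a log2 fold change of 0.55 (SE 0.05, 1.47-fold). Wfdc21 was then at 2.36 (SE 0.10, 5.14-fold), Hp at 1.35 (SE 0.08), Trem3 at 1.07 (SE 0.07), G0s2 at 0.98 (SE 0.27) and Anxa1 at 0.92 (SE 0.04). Clec4e was the exception in moving away from 0, from 0.41 to 0.53 (SE 0.09). Trem1 was at 0.17 (SE 0.07), Cxcr2 at 0.14 (SE 0.12) and Padi4 at -0.28 (SE 0.04), each nearer to 0 than before. The part of length in the values of single genes was not tested beyond this fit.

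**Figure D3:**
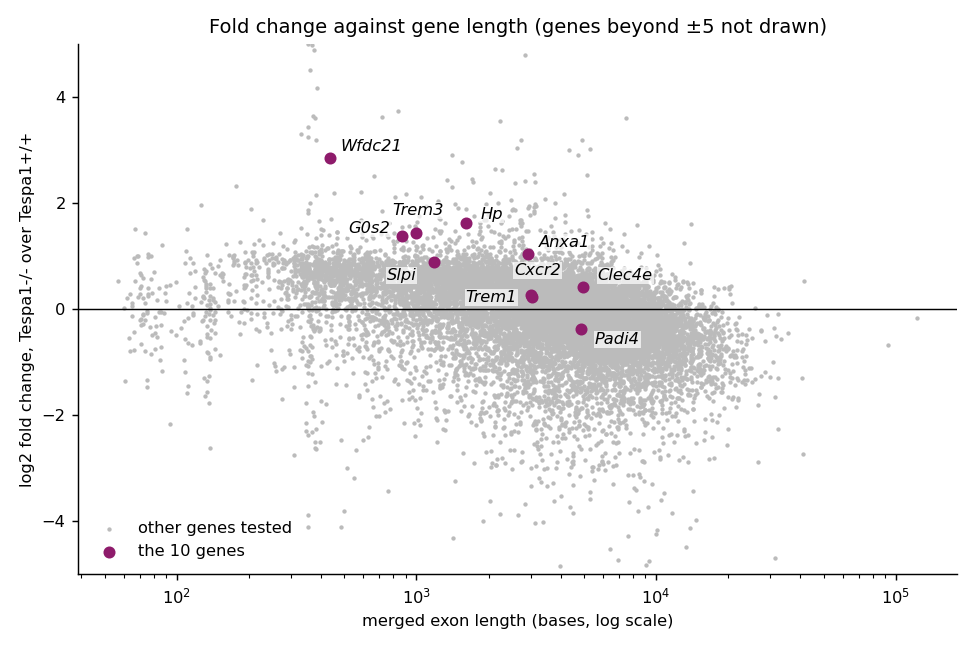
Log2 fold change (Tespa1-/- over Tespa1+/+) against merged exon length in bases (log axis) for all genes tested (grey) and the 10 genes (purple). The cloud slopes down to the right, with a median of 0.54 for genes of at most 1000 bases and of -0.27 for genes over 4000 bases, and Wfdc21, the shortest of the 10 genes, is drawn at 2.84.

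Levels were then compared between the genes per unit of length. The deposited FPKM values divide each count by the summed length of all distinct annotated exons of the gene, so that overlapping exons of different transcripts are counted more than once. Relative to merged exons, this length was 2.66 times as long for Clec4e (7 annotated transcripts), 1.73 for Cxcr2, 1.63 for Trem1, 1.49 for Anxa1, 1.48 for Hp, 1.4 for Slpi and 1.21 for Padi4, and it was the same for Trem3, Wfdc21 and G0s2, which have 1 transcript each. FPKM was therefore recomputed on merged exon length.

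On the recomputed scale, Hp led in Tespa1+/+ LSKs at 99.1 ± 11.1 FPKM (SD, n = 3). It was followed by Slpi (37.9), Anxa1 (34.7) and Trem3 (31.8), and the values of the last 2 overlapped between libraries. Lower came Padi4 (12.6), Trem1 (10.2), Wfdc21 (6.86), Clec4e (2.64), Cxcr2 (1.82) and G0s2 (1.09), with no overlap between neighbours. In Tespa1-/- LSKs the order was Hp (285 FPKM), Trem3 (79.9), Anxa1 (66.3), Slpi (65.6), Wfdc21 (46.2), Trem1 (11.5), Padi4 (8.97), Clec4e (3.26), G0s2 (2.58) and Cxcr2 (1.98), in which Anxa1 overlapped Slpi and G0s2 overlapped Cxcr2. Trem3 thus moved up past Slpi and Anxa1, Wfdc21 passed Trem1 and Padi4, and Trem1 passed Padi4. On the deposited scale some positions differed, as Trem3 (31.8 FPKM) lay above Slpi (27.1) and Anxa1 (23.3) already in Tespa1+/+ LSKs. The lowest genes there, G0s2 (1.09), Cxcr2 (1.05) and Clec4e (0.992), overlapped between libraries, as did Wfdc21 (6.86) with Trem1 (6.24).

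**Figure D4:**
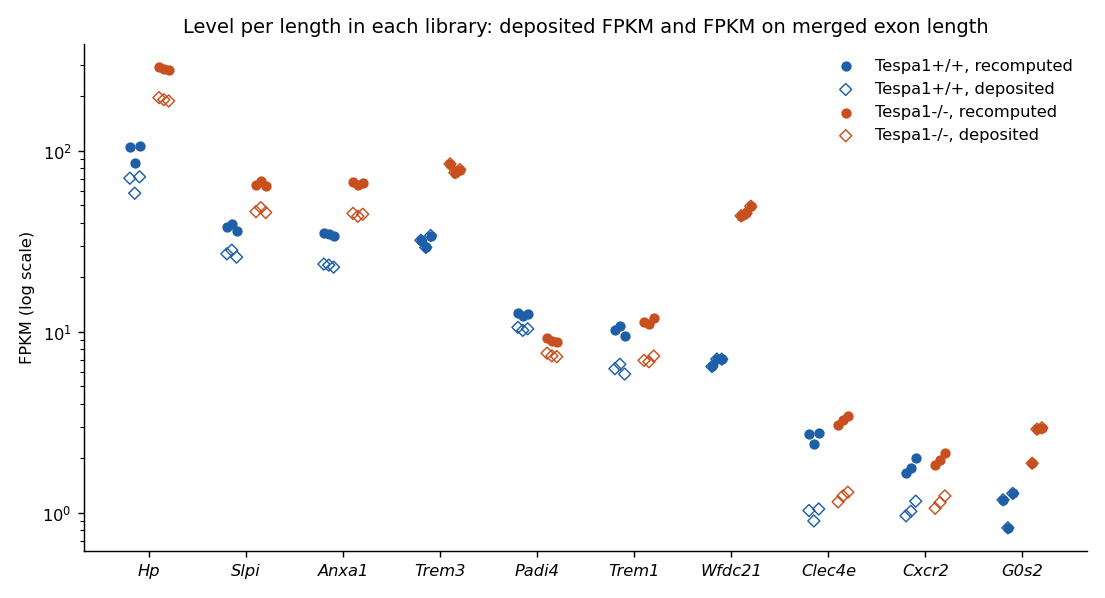
Level per length (FPKM, log axis) of the 10 genes in each library, as deposited (open diamonds) and recomputed on merged exon length (filled points), for Tespa1+/+ (blue) and Tespa1-/- (orange) libraries. Filled points lie above the diamonds most for Clec4e, whose summed exon length is 2.66 times its merged length, and the markers coincide for Trem3, Wfdc21 and G0s2.

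The genes around these 10 in their pathways and families were taken from lists, whose counts stand beside the 14.0% of all genes tested that were called higher and the 19.2% called lower. Besides Trem1 and Trem3, 11 genes of the TREM family and of the immune receptor signalling chain behind it were tested, of which 2 were called higher and 9 were not called (median log2 fold change 0.26). After the length correction the median was 0.04, with 2 called higher and 1 lower (Treml1, -1.04, edgeR adjusted p 0.0286). A fit with the replicate number as a block and the fit without Tespa1+/+ replicate 3 each also called 1 lower. Card9, an adaptor downstream of Syk that Mincle signals through, rose from 117 ± 2.74 to 213 ± 3.66 CPM (0.86 on the log2 scale, SE 0.03, edgeR adjusted p 2.0e-06). Trem2, the other, was low (1.44 ± 0.405 and 2.24 ± 0.116 CPM, log2 fold change 0.66, edgeR adjusted p 0.0323) and lost its call with total counts alone, with DESeq2 and without any library other than Tespa1+/+ replicate 3. Tyrobp, the adaptor of TREM1 and TREM3, was at 55.1 ± 0.648 and 72.6 ± 6.79 CPM (log2 fold change 0.40, SE 0.07, edgeR adjusted p 0.00202), under the fold of 1.5, and at -0.03 after the length correction.

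Of 10 further C-type lectin receptors 5 were tested, of which 4 were called higher and 1 lower (median 0.64), or 2 and 1 with total counts alone. Clec4a2, an inhibitory lectin of myeloid cells, had the largest rise (1.17 ± 0.139 to 3.29 ± 0.131 CPM, log2 fold change 1.47, SE 0.15, edgeR adjusted p 1.3e-04). Clec4d, the lectin that pairs with Mincle, was called higher at 0.61 (SE 0.15, edgeR adjusted p 0.00909), but it was at 0.34 after the length correction and at 0.49 without Tespa1+/+ replicate 2, neither of them called. Clec7a, the gene of the fungal glucan receptor Dectin-1, fell from 21.1 ± 1.48 to 13.1 ± 1.06 CPM (-0.69, SE 0.09, edgeR adjusted p 4.5e-04).

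Of 18 other neutrophil receptors 15 were tested, with 6 called higher, 2 lower and 7 not called (median 0.17), or 4 and 2 after the length correction. Their median was 0.05 without Tespa1-/- replicate 1, where 14 passed the filter and 4 were called higher. It was 0.04 without Tespa1-/- replicate 3, where 16 passed, so these medians are not over the same genes. Fpr2, a formyl peptide receptor, had counts of 0 in every Tespa1+/+ library and of 19, 15 and 8 in the Tespa1-/- libraries. Among the called genes with a mean count of at least 10, C5ar1, the complement C5a receptor, had the largest rise, with counts of 2, 4 and 7 against 18, 15 and 15 (log2 fold change 2.37, SE 0.47, edgeR adjusted p 0.00337). Itgal, the integrin alpha chain of LFA-1, had the largest fall, from 197 ± 7.14 to 85.2 ± 0.64 CPM (-1.21, SE 0.04, edgeR adjusted p 1.2e-06). Cxcr1, the chemokine receptor nearest in function to Cxcr2, had counts of 5, 10 and 8 against 4, 5 and 3 and did not pass the filter. Csf3r, the receptor for the granulocyte growth factor G-CSF, was at 166 ± 1.56 and 152 ± 2.59 CPM (-0.13, SE 0.03, edgeR adjusted p 0.00823), under the fold of 1.5.

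Of 12 ligands and signalling partners of CXCR2, 8 were tested, with 2 called lower and 6 not called (median -0.29). The larger fall was that of Arrb1 (beta-arrestin 1), with counts of 436, 3287 and 398 against 89, 118 and 126 (log2 fold change -2.76, SE 0.64, edgeR adjusted p 0.00722). Tespa1+/+ replicate 2 stood apart for this gene, and without it the value was -1.70 (edgeR adjusted p 0.00168). The other was Cxcl1, a ligand of CXCR2, with counts of 26, 42 and 22 against 7, 4 and 7 (-1.76, SE 0.27, edgeR adjusted p 0.00101).

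For the intracellular members, 8 of 11 further annexins were tested, with 2 called higher and 6 not called (median 0.22). After the length correction their median was -0.01, with 3 called higher. Anxa2, a membrane-binding annexin like Anxa1, rose from 109 ± 2.24 to 196 ± 12.9 CPM (log2 fold change 0.84, SE 0.05, edgeR adjusted p 1.1e-05), and Anxa3 was called at 0.63 (SE 0.04), but was under the fold of 1.5 with total counts alone. Of the 4 other deiminases only Padi2 passed the filter, with counts of 453, 929 and 426 against 162, 150 and 129, and it fell by 1.46 on the log2 scale (SE 0.09, edgeR adjusted p 1.1e-05). In the pathway of G0S2, 7 of 12 genes were tested, of which 3 were called higher and 4 were not called (median 0.22). These 3 were the lipid droplet coat genes Plin3 (1.07, SE 0.05, edgeR adjusted p 2.9e-06) and Plin2 (0.96, SE 0.05, edgeR adjusted p 3.9e-06) and the lipase activator Abhd5 (0.96, SE 0.16, edgeR adjusted p 0.00131). Pnpla2, the lipase that G0S2 inhibits, was at 97.3 ± 4.78 and 114 ± 6.55 CPM (0.22, SE 0.06, edgeR adjusted p 0.0101), under the fold of 1.5.

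Around the secreted members, 5 of 8 genes of hemoglobin scavenging and the acute phase were tested, with 2 called higher, 1 lower and 2 not called. Their median was -0.31, which turned to 0.37 after the length correction. Lrg1, an acute phase glycoprotein also made by neutrophils, rose from 5.12 ± 0.167 to 38.6 ± 1.83 CPM (log2 fold change 2.91, SE 0.07, edgeR adjusted p 6.9e-07). Saa3 was called at 1.52 (edgeR adjusted p 0.0409), and lost the call after the length correction, with total counts alone and without any of the Tespa1+/+ replicates or Tespa1-/- replicate 3 (0.75 without the last). Cd163, the macrophage receptor for haptoglobin bound to hemoglobin, had counts of 75, 103 and 54 against 12, 16 and 13 (-1.95, SE 0.21, edgeR adjusted p 1.6e-04). Of 10 further genes of WAP-domain proteins only Wfdc17 passed the filter, rising from 3.85 ± 0.577 to 6.96 ± 0.751 CPM (0.86, SE 0.14, edgeR adjusted p 0.00152). It was at 0.41 after the length correction, which is not called, and 6 genes of that list had no count in any library.

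For the C/EBP family, whose words were searched in the promoters, all 5 genes were tested, with 1 called higher and 4 not called (median 0.34). Cebpe, which drives late neutrophil maturation, rose from 25.6 ± 1.28 to 71.1 ± 1.4 CPM (log2 fold change 1.47, SE 0.05, edgeR adjusted p 1.7e-06). Whether it acts on any of the 10 genes was not tested.

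**Figure D5:**
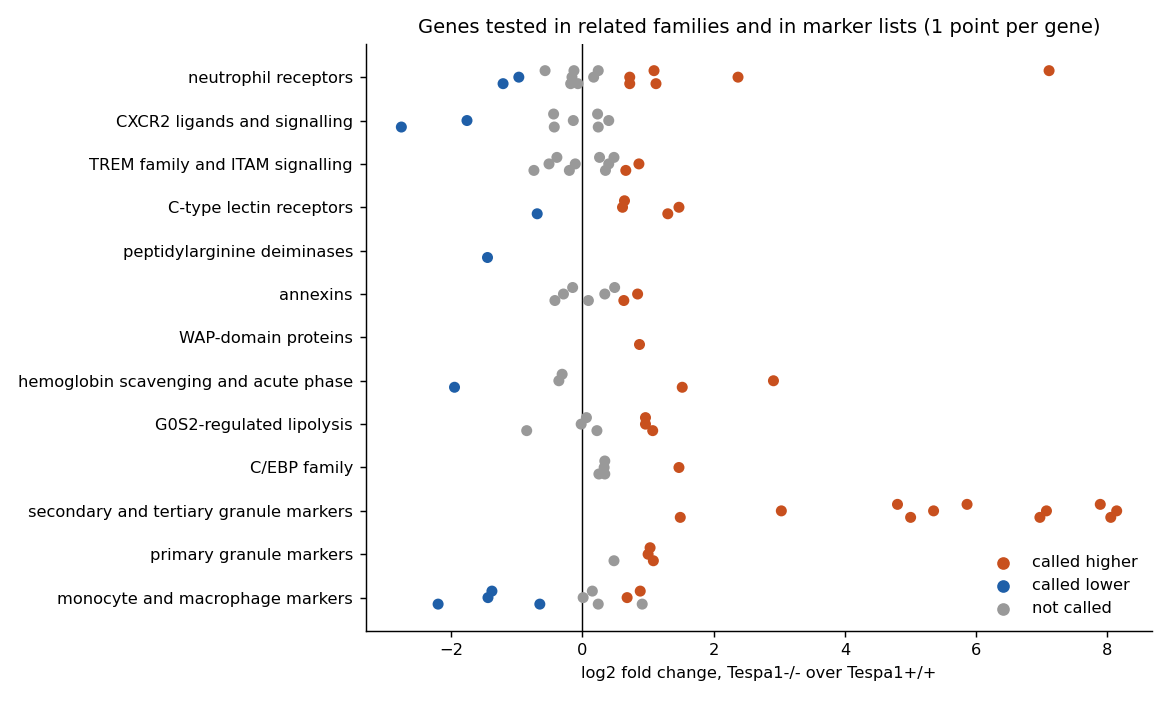
Log2 fold change (Tespa1-/- over Tespa1+/+, horizontal axis) of the genes tested in the related families and in 3 marker lists, with a point per gene, orange for called higher, blue for called lower and grey for not called. Values for genes with counts near 0 in Tespa1+/+ libraries, such as Fpr2 and several granule markers, depend on the prior count of the fit, and the late granule markers reach from 1.49 (Mmp8) to 8.14 (Ngp).

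Markers of other cell types were set beside these values. The late granule list had a median log2 fold change of 5.86, and its largest rise was that of Ngp, from counts of 3, 8 and 5 to 1226, 1054 and 885 (8.14, SE 0.12, edgeR adjusted p 9.2e-08). Of the 4 primary granule genes 3 were called higher (median 1.01), with Ctsg, the gene of cathepsin G, at 1.08 (SE 0.06, edgeR adjusted p 8.0e-06), and their summed level ranged from 10576 to 11326 CPM in Tespa1+/+ and from 17100 to 17978 CPM in Tespa1-/- libraries. Of 11 monocyte and macrophage markers 10 were tested, with 2 called higher, 4 lower and 4 not called (median 0.08). The called genes reached from Ly6c2 at 0.88 (SE 0.06, edgeR adjusted p 1.5e-05) to Mrc1 at -2.20 (SE 0.32, edgeR adjusted p 7.2e-04). After the length correction the median was -0.07, with 1 called higher and 3 lower. With total counts alone 1 was called higher, and with the replicate block 3 were. The markers summed to 561 to 599 CPM in Tespa1+/+ and to 720 to 799 CPM in Tespa1-/- libraries, and a sum follows the most abundant genes. Several of the 10 genes are also used by monocytes, and a source among these cells was not tested.

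Of 9 B and plasma cell markers 8 were tested, with 1 called higher (Jchain, 1.18) and 5 lower (largest for Pax5, -2.36), and with a median of -0.83. Their sum went the other way from this median, from 96.8 to 124 CPM in Tespa1+/+ against 132 to 142 CPM in Tespa1-/- libraries. Of 6 T cell markers 3 were tested and 2 were lower (largest for Cd4, -2.18, which lost its call without Tespa1-/- replicate 2), and Cd3e was at 0 in all Tespa1-/- libraries, with sums of 3.8 to 4.52 and of 1.61 to 2.29 CPM. With DESeq2 only 1 of the 3 was called lower, and without Tespa1+/+ replicate 1 or 2 only 1 of 2 tested. Of 6 erythroid markers 5 were tested, with 2 higher (largest for Slc4a1, 3.19) and 2 lower (largest for Klf1, -0.98), and with sums of 27 to 27.5 and of 42.7 to 46 CPM. Without Tespa1+/+ replicate 3, 6 were tested and 4 were called higher, and leaving out each of the other libraries gave 2 or 3. These marker values moved with the groups and their part in the 10 genes was not tested.

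Lastly, the gene with the most similar profile was sought for members of the set, by the Euclidean distance of log2(FPKM + 0.1) over the 6 libraries among 14633 genes with a mean FPKM of at least 0.5. This distance reads both the level and the difference between groups on the deposited scale. Padi4 lay nearest to Haus6 (distance 0.10), Trem1 to Tyms (0.12), Anxa1 to Cox6c2 (0.16) and Clec4e to Zfp672 (0.19). Distances were larger for G0s2 to Gm47675 (0.36), Trem3 to Gstm2-ps1 (0.47), Hp to Igha (0.59) and Wfdc21 to Mt2 (0.91). Wfdc21, at 6.86 and 46.2 FPKM in Tespa1+/+ and Tespa1-/- LSKs, thus had no close neighbour, as Mt2 was at 7.65 and 32.8 FPKM. The counts of Gstm2-ps1, which is named as a pseudogene, and of the immunoglobulin constant gene Igha can share reads with near-identical copies and are uncertain.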

How the data were processed

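RNA from 3 Tespa1+/+ and 3 Tespa1-/- LSK samples was sequenced as poly-A selected, stranded paired-end libraries. CASAVA 1.8, HISAT2, StringTie, edgeR and the build GRCm38 are named in the submitters' processing notes; other versions, the annotation and the strand setting of counting are not given in the sources used here. The authors deposited a raw count per gene and sample and an FPKM value made from it; of 55487 genes, 55227 matched GENCODE M21 and 54870 had identical coordinates. The implied FPKM length equalled the summed exon length within 1% for 97.93% of 15270 genes, and the merged exon length for 24.76%.

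Counts were filtered (filterByExpr), scaled (TMM) and tested with the edgeR 4.0.16 quasi-likelihood test in R 4.3.3, Benjamini-Hochberg adjusted over 15332 genes, after the code was tested on simulated data. Genes past both a fold of 1.5 and an adjusted p of 0.05 were called. CPM uses TMM library sizes. The SE comes from the F statistic of each fold change. The length correction used a loess fit (span 0.5) of log2 CPM deviations on merged exon length as an offset. The alternatives are named with their values in the closing section.

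The 10 genes and all lists were chosen with earlier results of these data known. Named genes were the 10 genes, the most similar gene of each (those of Slpi and Cxcr2 are not reported here), Tespa1, Kit, Ly6a, the largest rise and fall among called genes of each list with a mean count of at least 10, and the partners Cxcr1, Tyrobp, Csf3r, Clec4d, Padi2, Pnpla2, Anxa2 and Wfdc17. Genes named beyond this rule, chosen after their values were seen, were Trem2, Treml1, Plin2, Abhd5, Anxa3, Cxcl1, Saa3, Mmp8, Cd3e, Ly6g and Fpr2. No 2 libraries agreed within sampling noise, with a chi-square per degree of freedom of 6.66 to 8.71 within and of 58.5 to 87.5 between groups. Counting error weighs most on the lowest genes. For a gene listed at 0, up to 3 counts are allowed by counting error, the only error this limit covers.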

Additional observations from a re-analysis of the deposited data

How the results depend on the processing

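Under RLE size factors, total counts alone, no filter on low counts, DESeq2, the replicate block, an adjusted p under 0.01 or an unadjusted p under 0.05 (each with a fold over 1.5) and the fits that each left out a replicate, 6 of the 10 genes were called higher and 0 lower. Under the length correction 5 were higher, and 1253 genes of the whole table were called higher in place of 2148. The cause was not tested. With total counts alone the median of all genes lay at -0.10 on the log2 scale, with 1491 higher and 3516 lower genes, and 29.8% of calls were higher in place of 42.1%. Leaving out each replicate gave 2078 to 2246 higher and 2716 to 2885 lower genes. Of 120 alternative log2 fold changes of the 10 genes, 105 moved by less than the spread between replicates, 15 by more, and 0 changed sign. All 15 came from the length correction and from total counts alone, and the length correction moved every gene except Cxcr2 by more than that spread. The widest ranges were those of G0s2 (0.98 to 1.57) and Wfdc21 (2.36 to 2.88).

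The deviations of libraries with the same replicate number correlated at 0.0459, 0.0107 and 0.0595, so the numbers were not taken to pair the samples, although each library correlated best with its own number. With the replicate block, 2101 genes were higher and 2871 lower (2951 without it).

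The results rest on 3 libraries per group, and G0s2, with at most 38 counts, is the least precise.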
